A study of Mus musculus with 8 samples.

Results

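The odorant receptor genes Olfr90 to Olfr137 were taken as all rows of the deposited polysome table whose symbol is Olfr followed only by a number and lies from Olfr90 to Olfr137, without the -ps suffix that marks pseudogenes. The rule found 44 genes among 21765 rows, or 4.04% of the 1090 receptor rows of the same form. In GENCODE M21 on GRCm38 all 44 lie in 1 stretch of chromosome 17, chr17:37083871-38336643, a span of 1253 kb with 22 genes on each strand. The class I genes H2-M3 and H2-M2 of the major histocompatibility complex (MHC) and the ubiquitin-like gene Ubd lie inside this span, so the label of MHC-linked receptors fits their positions. The largest gap, 124 kb, separates Olfr128 from Olfr129.

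Odorant receptors are G protein-coupled receptors of the cilia of olfactory sensory neurons. A mature neuron transcribes a single allele of a single receptor gene, so the level of a receptor in whole epithelium reflects both how many neurons chose the gene and how much RNA each of them holds; from bulk libraries fewer such neurons and less RNA per neuron cannot be told apart. A bound receptor signals through the G protein subunit Gnal and adenylyl cyclase Adcy3, and on its way to the surface it needs chaperones such as Rtp1 and Rtp2. Polysome gradients order RNAs by the ribosomes they carry, with the heavier complexes further down the gradient.

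RNA was sequenced from polysome fractions of the mouse main olfactory epithelium, with 2 libraries in each of 4 groups: wild type (WT) early, WT late, conditional knockout (cKO) early and cKO late. WT mice were Mex3a flox/flox or Mex3a flox/+ without Cre, and cKO mice were Mex3a flox/flox with Cre; the Cre line is not reported here, and Mex3a encodes an RNA-binding protein. All tissue was treated with 100 µg/mL cycloheximide, which arrests ribosomes, and of 42 fractions of 350 µL collected, 50 µL each of fractions 27 to 34 (early) or 35 to 42 (late) was pooled. Ages, and how many animals gave a lysate, are not given in the sources used here, so p-values measure the spread between these libraries. One library, WT early replicate 2, is titled WT but tagged with the cKO genotype; the title was followed, and calls that are lost without the library are marked. Its deposited Mex3a level was 116 TPM (transcripts per 1000000), beside 93.2 to 97.4 TPM in the other WT libraries and 11.1 to 19.8 TPM in the 4 cKO libraries. Whole reads inferred from the steps of the TPM values gave 7776792 to 12771079 reads per library, and 17852 to 18966 genes were above 0. The 8 listed markers of mature olfactory neurons were all present, with Omp, the olfactory marker protein gene, between 2310 and 5490 scaled TPM.

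Most of the genes have a close copy in the cluster, which bears on which reads could be assigned to them. Coding sequences ran from 915 to 1158 nucleotides, with Olfr94 the longest. The closest other receptor in coding sequence had a median identity of 91.1%, it was at least 90% identical for 26 genes and under 70% for 10, and for 34 genes it was another of the 44. At the median, 83.4% of the 50-base stretches of a coding sequence occurred in no other receptor coding sequence. That share was lowest, 42.6%, for Olfr110 and Olfr111. Those genes are 98.1% identical and share a run of 416 bases. Values of the closest copies are uncertain to the extent that the authors' counting, which is not stated, could split or drop shared reads. In GENCODE M21, Olfr115 and Olfr116 also overlap in exons on the same strand, by 267 bases. The length behind the deposited TPM of Olfr115 was 995 bases, beside 2599 in GENCODE M21. The overlap may therefore not hold for the authors' counts.

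The sequences below are the 120-base coding windows, from GENCODE M21 transcripts on GRCm38, in which the copies that the results turn on differ most. They are shown 5′ to 3′ in lower case, with capitals at bases that differ from the first gene of each set. The first set holds Olfr127, the gene with the largest difference between genotypes, and its copies Olfr126, Olfr128 and Olfr761, a receptor of the same stretch that the number rule does not include. The windows are coding bases 92 to 211 of each gene: chr17:37903639-37903758 (plus strand) for Olfr127, chr17:37850685-37850804 (plus) for Olfr126, chr17:37923659-37923778 (plus) for Olfr128 and chr17:37952812-37952931 (minus) for Olfr761. Over the whole coding sequence Olfr127 differs from Olfr126 at 49 of 957 aligned bases, from Olfr128 at 33 of 924 and from Olfr761 at 58 of 969, and 54.5% of its 50-base stretches occur in no other receptor.
Olfr127: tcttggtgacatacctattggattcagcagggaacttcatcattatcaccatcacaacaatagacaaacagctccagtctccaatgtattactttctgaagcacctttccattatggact
Olfr126: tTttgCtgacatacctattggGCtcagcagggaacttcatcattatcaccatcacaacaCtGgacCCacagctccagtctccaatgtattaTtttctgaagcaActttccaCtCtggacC
Olfr128: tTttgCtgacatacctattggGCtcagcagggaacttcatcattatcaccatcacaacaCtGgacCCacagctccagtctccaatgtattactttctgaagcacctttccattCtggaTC
Olfr761: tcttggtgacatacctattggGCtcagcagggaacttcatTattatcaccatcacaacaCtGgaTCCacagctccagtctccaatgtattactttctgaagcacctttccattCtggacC

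Olfr117 and Olfr130 form a second pair, with 27 differing bases of 951, although they lie far apart in the cluster and on opposite strands. Their windows are coding bases 682 to 801, at chr17:37659531-37659650 (minus) and chr17:38067854-38067973 (plus), and hold 12 of the differences.
Olfr117: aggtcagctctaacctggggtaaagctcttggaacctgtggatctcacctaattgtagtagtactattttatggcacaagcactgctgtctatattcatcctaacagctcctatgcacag
Olfr130: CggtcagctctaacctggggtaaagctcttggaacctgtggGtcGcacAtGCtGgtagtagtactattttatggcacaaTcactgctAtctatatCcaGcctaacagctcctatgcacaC

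Olfr133, Olfr134 and Olfr135 are neighbours on the plus strand and are shown because they stood on the other side of 0 from most of the cluster in the comparison of fractions. Olfr134 differs from Olfr133 at 44 and from Olfr135 at 61 of 936 bases. Their windows are coding bases 205 to 324, at chr17:38175290-38175409 for Olfr134, chr17:38148794-38148913 for Olfr133 and chr17:38208451-38208570 for Olfr135.
Olfr134: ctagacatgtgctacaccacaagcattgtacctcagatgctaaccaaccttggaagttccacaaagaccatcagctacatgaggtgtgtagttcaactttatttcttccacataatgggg
Olfr133: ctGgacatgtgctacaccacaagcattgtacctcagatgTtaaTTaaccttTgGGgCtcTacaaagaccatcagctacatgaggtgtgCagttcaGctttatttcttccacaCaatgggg
Olfr135: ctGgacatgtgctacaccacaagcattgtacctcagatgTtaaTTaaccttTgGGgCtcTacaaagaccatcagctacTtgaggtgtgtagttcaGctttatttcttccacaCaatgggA

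Olfr110 and Olfr111 are the closest pair of the cluster, and even in the window where they differ most only 7 bases differ. The windows are coding bases 757 to 876, at chr17:37499409-37499528 and chr17:37530735-37530854 on the plus strand.
Olfr110: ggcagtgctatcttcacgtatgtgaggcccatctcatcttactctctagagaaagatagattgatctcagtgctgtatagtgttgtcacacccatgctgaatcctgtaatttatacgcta
Olfr111: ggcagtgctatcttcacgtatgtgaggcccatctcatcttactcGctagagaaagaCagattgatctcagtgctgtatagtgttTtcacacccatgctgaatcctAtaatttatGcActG

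Levels are given as TPM scaled between libraries by median ratios, a scale that is already per transcript length, by the lengths the authors used. These could be recovered as whole numbers of 995 to 6359 bases (median 2531) for the 44 genes, longer than the coding sequence alone. They equalled those of GENCODE M21 for 7 genes. For Olfr115 the length was 995 beside 2599 in GENCODE M21, and for Olfr124 it was 6214 beside 4669. The order of levels between genes depends on these lengths. The genes were lowly expressed. Their mean levels had a median of 2.23 scaled TPM, from 0.0782 (Olfr102) to 11.6 (Olfr131), beside a median of 1.81 over 1046 other receptor genes. A mean deposited level of at least 1 TPM was required for testing and was met by 35 of the 44 genes (79.5%) and by 789 of the other receptors (75.4%). The genes just inside were Olfr101 (mean 1.08 scaled TPM) and Olfr112 (1.31), and those just outside were Olfr98 (0.94) and Olfr133 (0.846).

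Olfr131 had the highest level of the cluster in all 8 libraries, at 12.5 and 16.5 scaled TPM early and 9.23 and 8.94 late in WT, and 13.2 and 16.1 early and 9.04 and 7.25 late in cKO (replicates 1 and 2). It ranked 8 among all receptor genes by mean level. Its closest receptor in coding sequence is 62.1% identical, with a longest shared run of 17 bases. Olfr99 came next with a mean of 6.70 ± 2.49 (SD over 8 libraries), then Olfr124 with 5.88 ± 2.74, Olfr95 with 5.72 ± 2.25 and Olfr115 with 4.68 ± 2.00. Olfr109 (4.02 ± 0.752), Olfr90 (3.95 ± 1.03) and Olfr96 (3.84 ± 1.47) completed the highest 8. Olfr131 exceeded Olfr99 in 8 of 8 libraries, whereas Olfr99 exceeded Olfr124 in 4 of 8, Olfr124 exceeded Olfr95 in 4 of 8, Olfr115 exceeded Olfr109 in 4 of 8 and Olfr109 exceeded Olfr90 in 4 of 8. Olfr95 exceeded Olfr115 in 7 of 8 and Olfr90 exceeded Olfr96 in 6 of 8. The ranges of all neighbours in this order overlapped, and whether neighbours differ was not tested. The place of Olfr115 rests on 160 inferred reads in all and on the short length given above. The splits of Olfr124 followed genotype: it lay above Olfr99 and Olfr95 in every WT library and below both in every cKO library.

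The other tested genes had mean levels from 1.08 to 3.68 scaled TPM. Between 2 and 4 lay Olfr125 (3.68), Olfr120 (3.34), Olfr93 (2.96), Olfr127 (2.85), Olfr132 (2.83), Olfr107 (2.82), Olfr121 (2.82), Olfr94 (2.71), Olfr129 (2.61), Olfr110 (2.56), Olfr116 (2.56), Olfr92 (2.39), Olfr111 (2.35), Olfr91 (2.28) and Olfr122 (2.18). Between 1 and 2 lay Olfr130 (1.88), Olfr126 (1.72), Olfr117 (1.65), Olfr134 (1.63), Olfr97 (1.62), Olfr136 (1.49), Olfr119 (1.45), Olfr128 (1.42), Olfr108 (1.38) and Olfr123 (1.37), with Olfr112 and Olfr101 below them. Values of near copies could stand far apart. Olfr101 averaged 1.08 scaled TPM, while its neighbour Olfr102, 96.6% identical, was at 0 in 5 libraries and had 3 inferred reads in all. The lengths behind these values were unlike: 3081 bases for Olfr101 and 1027 for Olfr102, beside coding sequences of 924 bases each. For Olfr102 the GENCODE length was 2835. Of the coding stretches described above, 67.0% of Olfr101 and 66.2% of Olfr102 occurred in no other receptor. Whether expression of the 2 genes differs, apart from how their reads were counted, was not tested. The remaining genes below the filter were Olfr135 (0.812), Olfr103 (0.706), Olfr113 (0.681), Olfr118 (0.674), Olfr114 (0.485) and Olfr137 (0.428). None of the 44 was at 0 in every library.

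**Figure D1:**
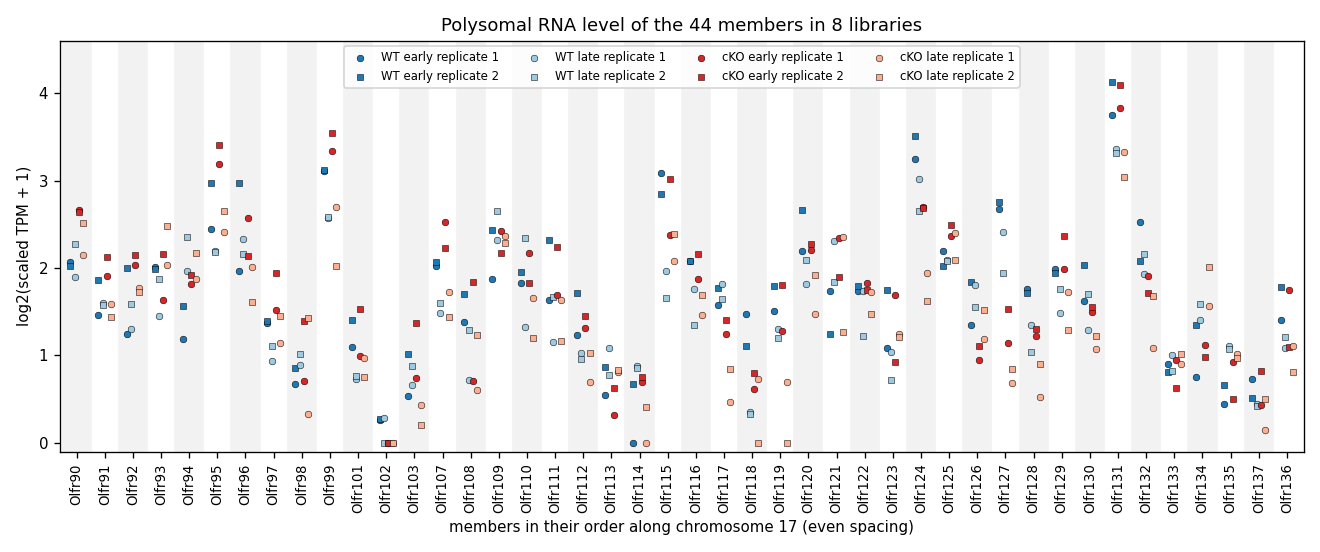
Level of each of the 44 genes in each library, as log2(scaled TPM + 1) on the vertical axis, with genes evenly spaced in their order along chromosome 17; colours mark the 4 groups and shapes the replicate. Olfr131 is the highest gene in all 8 libraries, Olfr102 lies at or near 0, and late libraries (pale) lie mostly below early ones (dark).

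Summed over the 44 genes, the level was 117 and 143 scaled TPM early and 97.6 and 99.9 late in WT, and 122 and 137.02 early and 86.2 and 85.0 late in cKO. All 4 early libraries lay above all 4 late ones, while the WT and cKO ranges overlapped in early and stood apart in late fractions. Group means were 130.0 ± 18.5 (SD, n = 2), 98.8 ± 1.62, 129.6 ± 10.51 and 85.6 ± 0.848, in the same order. As a share of the summed level of all receptors this was 4.54% ± 0.0935 early and 3.96% ± 0.046 late in WT and 4.53% ± 0.046 early and 3.87% ± 0.0723 late in cKO, so the sum was lower in late fractions also relative to all receptors. The 8 genes named as highest made up 40.1% to 46.4% of the sum. In late fractions the sum of the other receptor genes also stood apart, at 2390 to 2400 scaled TPM in WT and 2110 to 2140 in cKO. The late share of the cluster among all receptors overlapped between genotypes, at 3.92% and 3.99% in WT and 3.93% and 3.82% in cKO. These sums carry no test. The summed level of the 8 mature neuron markers was also lower in late fractions, at 10200 to 12500 scaled TPM early and 7600 to 8020 late in WT, and 11100 to 11300 early and 6700 to 7680 late in cKO. Gene by gene the markers were divided: on average over genotypes 5 of the 8 were called higher in late polysomes, among them Gnal (0.48 log2) and Cnga2 (0.20), and the 3 called lower were the abundant Omp (-0.83) and Stoml3 (-0.76) and also Gng13 (-1.73), with a list median of 0.34. Their part in the receptor sums was not tested.

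Late polysomes were compared with early ones to see where on the gradient these RNAs lay. Of the 35 tested genes, 13 were lower and 2 higher in late polysomes on average over both genotypes (limma, Benjamini-Hochberg adjusted p under 0.05 over 16097 genes). Over all genes tested, 34.6% were lower and 34.3% higher, 68.9% in all, so the share of the cluster called lower, 37.1%, was near the background. The share called higher, 5.71%, was below it. Other receptor genes were called lower in 185 and higher in 34 of 789 cases (23.4% and 4.31%). The median change was -0.40 log2 with 29 of 35 genes below 0, beside -0.20 for other receptors and -0.01 for all genes. In the WT lysates the cluster's median was -0.25 and -0.47, in the cKO lysates -0.43 and -0.49, and that of other receptors was, in the same order, -0.05, -0.24, -0.20 and -0.33. Late was below early in 4 of 4 lysates for 19 of the 35 genes (background 37.8%) and above in 4 of 4 for 2 (background 38.2%). The count of 15 called genes rested in part on early libraries: it was 8 without WT early replicate 2 (6 lower, 2 higher) and 7, all lower, without cKO early replicate 2. It was 9 under quantile normalization, with 7 lower.

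The most abundant receptor was among those that fell. The levels of Olfr131 given above do not overlap between fractions; its change was -0.69 log2 (SE 0.13, adjusted p = 0.00127), and it was -0.60 without WT early replicate 2 (adjusted p = 0.00572). Olfr99 was at 7.63 and 7.69 scaled TPM early and 4.97 and 5.0 late in WT, and 9.09 and 10.63 early and 5.49 and 3.08 late in cKO. Its late libraries were all below its early ones, with a change of -0.80 (SE 0.16, adjusted p = 0.00194).

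Olfr115 was at 7.50 and 6.18 scaled TPM early and 2.92 and 2.15 late in WT, and 4.18 and 7.07 early and 3.24 and 4.23 late in cKO. The fractions stood apart in WT and met in cKO, where the highest late library was just above the lowest early one. The average change was -0.81 (SE 0.18, adjusted p = 0.00403). Olfr116, whose exons overlap those of Olfr115 in GENCODE M21, changed by -0.48 (adjusted p = 0.0293), a call lost without WT early replicate 2 (-0.49). Olfr124 was at 8.47 and 10.37 early and 7.09 and 5.30 late in WT, and 5.46 and 5.42 early and 2.85 and 2.09 late in cKO. Within each genotype its fractions did not overlap, and the change was -0.72 (SE 0.14, adjusted p = 0.00204).

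Olfr107, with 3.07 and 3.19 scaled TPM early and 1.81 and 2.03 late in WT, and 4.76 and 3.70 early and 2.30 and 1.71 late in cKO, also separated the fractions without overlap. It changed by -0.65 (SE 0.15, adjusted p = 0.005). Olfr119 changed by -0.80 (SE 0.23, adjusted p = 0.0139), a value that includes 1 late cKO library at 0. It had at most 25 inferred reads in a library. The call was lost without WT early replicate 2 and without cKO early replicate 2, with adjusted p values of up to 0.0536. Olfr95 fell by 0.64 on the log2 scale (adjusted p = 0.00503) and also passed without WT early replicate 2 (adjusted p = 0.0174). Calls were less stable for Olfr127 (-0.55, adjusted p = 0.0225), Olfr128 (-0.54, adjusted p = 0.0276), Olfr120 (-0.51, adjusted p = 0.0297), Olfr129 (-0.51, adjusted p = 0.0298) and Olfr112 (-0.50, adjusted p = 0.0489). These 5 and Olfr116 did not pass without WT early replicate 2 (changes of -0.38 to -0.56, adjusted p of 0.0605 to 0.158), and none of the 6 passed under quantile normalization (adjusted p of 0.0634 to 0.175) or without cKO early replicate 2. All 4 late libraries lay below all 4 early ones for 8 genes (background 30.9%): Olfr131, Olfr99, Olfr107, Olfr129, Olfr116, Olfr120, Olfr112 and Olfr101, of which Olfr101 did not pass the test (adjusted p = 0.0806).

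The pair that rose were Olfr134 and Olfr94. Olfr134 was at 0.691 and 1.55 scaled TPM early and 1.64 and 1.99 late in WT, and 1.17 and 0.97 early and 1.97 and 3.04 late in cKO, so that every late library was above every early one (background 31.5% of genes). Its change was 0.59 (SE 0.21, adjusted p = 0.0321), from 5 to 14 inferred reads a library. Olfr94, whose coding sequence is the least like any other receptor's in the cluster (51.8% identity to its closest), was at 1.27 and 1.95 early and 2.91 and 4.10 late in WT, and 2.52 and 2.79 early and 2.67 and 3.5 late in cKO. It changed by 0.47 (SE 0.17, adjusted p = 0.0377), with differences of 0.79 and 0.79 in the WT lysates and 0.06 and 0.25 in the cKO lysates. Each of these calls was lost in 6 of 16 alternatives, among them the removal of cKO early replicate 2.

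The copies of Olfr134 printed above lay below the filter. Without that filter, Olfr135 was higher in late polysomes by 0.41 (adjusted p = 0.032), from 5 to 15 reads a library, and Olfr133 had a change of 0.11 (adjusted p = 0.464). Olfr135 was at 0.356 and 0.583 scaled TPM early and 1.15 and 1.10 late in WT, and 0.903 and 0.417 early and 1.01 and 0.966 late in cKO. The late libraries were again above the early ones. Of the other genes below the filter, Olfr118 was lower in late polysomes by 0.65 on the log2 scale (adjusted p = 0.0189), from 0 to 14 reads a library. It was lower in 3 of 4 lysates, with changes of -0.95 in WT (adjusted p = 0.0225) and -0.34 in cKO (adjusted p = 0.321). Olfr98, Olfr102, Olfr103, Olfr113, Olfr114 and Olfr137 did not pass. The calls of Olfr135 and Olfr118 were not repeated without WT early replicate 2. Near copies did not always share a direction: Olfr119 fell while Olfr121, 95.5% identical, had a change of 0.14 (SE 0.27, adjusted p = 0.666), and Olfr127 and Olfr128 fell, by calls that were lost without WT early replicate 2, while Olfr126 had a change of 0.20 (SE 0.19, adjusted p = 0.37). Whether these pairs differ was not tested.

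**Figure D2:**
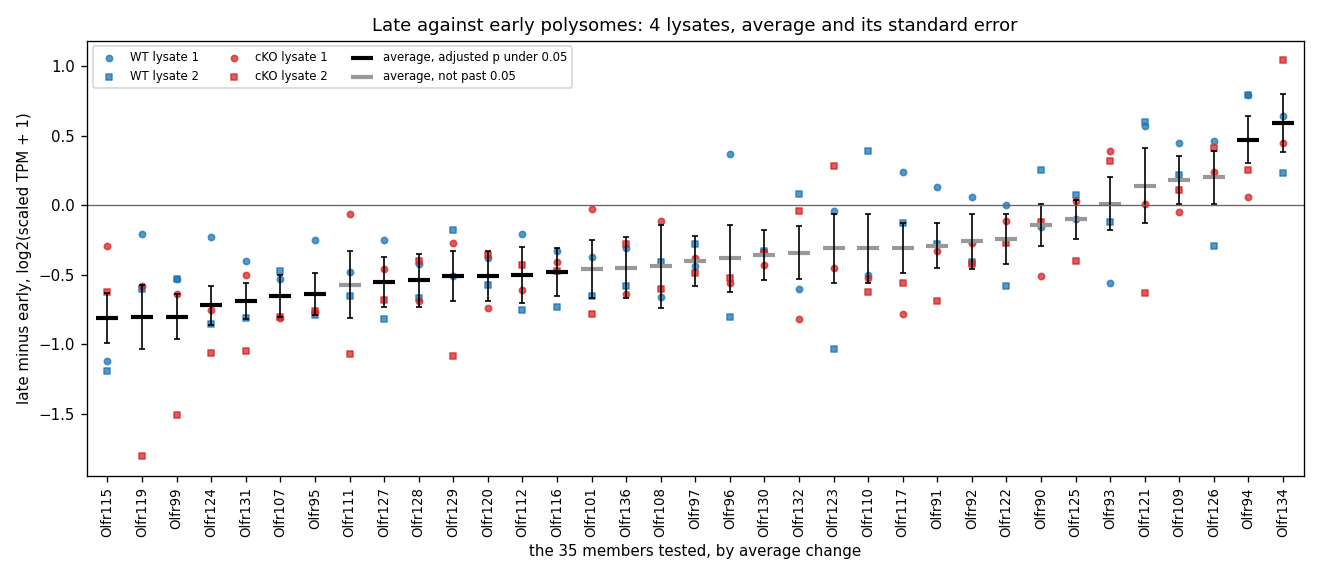
Late minus early on the log2(scaled TPM + 1) axis for the 35 tested genes, ordered by the average; dots are the 4 lysates, bars the average over both genotypes and whiskers its standard error. Most averages lie below 0, and Olfr94 and Olfr134 at the right are the genes called higher.

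**Figure D3:**
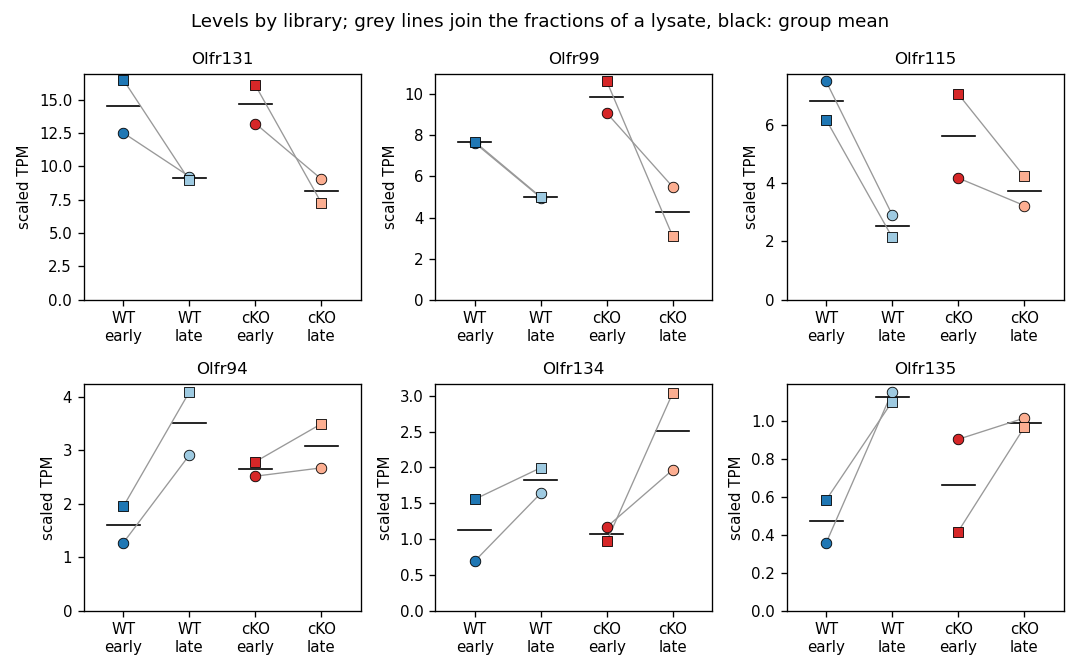
Scaled TPM in each library for Olfr131, Olfr99, Olfr115, Olfr94, Olfr134 and Olfr135 by group, with grey lines joining the early and late library of a lysate and black bars at group means. The lines fall in 4 of 4 lysates for Olfr131, Olfr99 and Olfr115 and rise in 4 of 4 for Olfr94, Olfr134 and Olfr135.

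Within WT alone 4 of 35 genes passed: Olfr115 (-1.15, SE 0.26, adjusted p = 0.00584), Olfr131 (-0.61, adjusted p = 0.0195) and Olfr124 (-0.54, adjusted p = 0.0499) were lower and Olfr94 higher (0.79, SE 0.24, adjusted p = 0.0248). The call of Olfr124 in WT was lost in 13 of 18 alternatives, with adjusted p values of up to 0.264. The background was 54.8%, of which 27.7% of genes were lower. The WT count was 2 without WT early replicate 2 (Olfr131 -0.43, adjusted p = 0.137, and Olfr124 -0.41, adjusted p = 0.24, did not pass) and 1 without WT late replicate 2. Within cKO alone 7 genes passed, all lower, against a background of 29.2% lower: Olfr119 (-1.19), Olfr99 (-1.07), Olfr124 (-0.90), Olfr107 (-0.80), Olfr131 (-0.78), Olfr95 (-0.77) and Olfr129 (-0.67). It was 4 without cKO early replicate 2. Olfr129 did not pass without WT early replicate 2 (adjusted p = 0.0639). A call in 1 genotype is not a difference between genotypes. The interaction of genotype and fraction passed for 0 of 35 genes (background 0.00621%), with 0 at an unadjusted p under 0.05 in limma (background 2.85%) and 0 past the adjusted threshold with voom on inferred reads (background 0%).

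Genes of the receptor pathway moved in both directions. Of 15 receptor signalling genes, 9 were higher and 4 lower in late polysomes: Adcy3 (1.58), the channel subunit Cnga4 (1.32) and the chloride channel Ano2 (1.23) rose, while the G protein subunit Gng13 fell by 1.73 on the log2 scale. The chaperones Rtp1 (0.48) and Rtp2 (0.48) rose and Reep6 (-0.74) and Reep1 (-0.45) fell. Of 14 genes linked to receptor choice, 6 rose and 7 fell, among them the histone demethylase gene Kdm1a (0.88) and the transcription factor genes Ddit3 (-1.12), Atf5 (-0.93) and Lhx2 (-0.80). Of 24 non-receptor genes listed beside the cluster, 20 were in the table and 8 tested. Trim26 (0.84), H2-M3 (0.71) and Gabbr1 (0.56), a subunit of the GABA-B receptor, rose, and Ppp1r11 (-0.93), Trim10 (-0.59) and Trim39 (-0.42) fell. H2-M3, inside the receptor stretch, therefore changed in the opposite direction to most of its receptor neighbours. Znrd1 (-1.54) and Znrd1as (-1.24), beside the stretch but not listed under these symbols, fell further than Ppp1r11. Markers of other cell types differed by list, against a background of 34.3% of genes higher and 34.6% lower: 6 of 6 Bowman gland genes rose, with a sum of 1850 to 3220 scaled TPM early and 4590 to 5640 late in WT, and 2350 to 3180 early and 6600 to 6780 late in cKO, and 5 of 6 sustentacular genes rose while Cbr2 fell by 0.51 on the log2 scale. Of 3 respiratory ciliated genes 1 rose and Foxj1 fell (-0.51), and of 3 tested blood and immune genes 1 rose and S100a8 fell (-1.71). Of 4 horizontal basal genes 3 rose and of 6 globose basal and progenitor genes 4 rose. The 7 immature olfactory neuron genes were divided: 3 rose, most of all Tubb3 (0.99), and 3 fell, most of all Gng8 (-1.49). Of 4 vomeronasal genes, a list included because such receptors are also expressed beside this tissue, 3 were in the table. Gnai2 fell (-0.88) and Calr4 rose (0.36), with mean levels of 366 and 5.7 scaled TPM, and the receptor Vmn1r51 was at 0 in 6 libraries. The part of these cell types in the receptor changes was not tested.

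The comparison of cKO with WT asks whether loss of Mex3a goes with another polysomal level of these receptors. In early polysomes, in late polysomes and on the means of each lysate, 0 of 35 genes passed after adjustment in limma, against backgrounds of 0.0435%, 0.0124% and 0.00621%. Without WT early replicate 2, a WT lysate is lost from the means and the WT early group has no replicate, so counts for that run are not given. At an unadjusted p under 0.05 there were 4 genes in early polysomes (background 6.65%), 5 in late (9.36%) and 7 on lysate means (11.3%), of which 2 were higher and 5 lower in cKO. Of other receptor genes 142 of 789 did so on lysate means (18%), so the share in the cluster, 20%, was near theirs. The median change on lysate means was -0.01 log2, with 18 of 35 genes below 0, and 0.05 without WT early replicate 2. Mex3a itself changed by -2.67 (SE 0.14, adjusted p = 0.0227).

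Of the 35 tested genes, Olfr127 had the largest difference. It was at 5.36 and 5.76 scaled TPM early and 4.34 and 2.83 late in WT, and 1.20 and 1.88 early and 0.607 and 0.795 late in cKO. Every cKO library was below every WT library, and the mean over cKO libraries was 24.5% of that over WT libraries. The log2 change was -1.38 in early (SE 0.25, adjusted p = 0.23), -1.41 in late (SE 0.25, adjusted p = 0.22) and -1.40 on lysate means (SE 0.19, adjusted p = 0.189), with the same direction in both fractions, and -1.50 on lysate means without WT early replicate 2. Inferred reads were 80 and 84 early and 60 and 41 late in WT, and 17 and 24 early and 7 and 7 late in cKO. On these reads, summed per lysate, voom gave a change of -1.99 (SE 0.28, adjusted p = 0.0376), so the call depends on the test.

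Olfr124, the third most abundant gene of the cluster, came next. Its levels given above were lower in cKO than in WT within each fraction, and only WT late replicate 2 lay within the cKO range. The cKO mean was 50.7% of the WT mean. Changes were -0.69 in early (SE 0.20, adjusted p = 0.665), -1.05 in late (SE 0.20, adjusted p = 0.265) and -0.87 on lysate means (SE 0.13, adjusted p = 0.208). With voom on summed reads it was -0.91 (SE 0.12, adjusted p = 0.0268). Olfr124 and Olfr127 were the 2 of 35 genes that voom called on lysate sums (background 0.361%; 14 of 789 other receptors). Olfr124 has no close copy, its nearest receptor being 66.9% identical.

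Olfr117 was at 1.99 and 2.40 scaled TPM early and 2.53 and 2.12 late in WT, and 1.36 and 1.65 early and 0.38 and 0.795 late in cKO. Its cKO libraries all lay below its WT libraries. The change was -0.35 in early (SE 0.25, adjusted p = 0.855), -1.08 in late (SE 0.25, adjusted p = 0.337) and -0.71 on lysate means (SE 0.20, adjusted p = 0.367). Its copy Olfr130 was at 2.09 and 3.10 early and 1.44 and 2.25 late in WT, and 1.82 and 1.94 early and 1.10 and 1.32 late in cKO, with overlapping genotypes and a change of -0.33 on lysate means (SE 0.21, adjusted p = 0.591). Olfr132 (-0.58, SE 0.17, adjusted p = 0.374) and Olfr119 (-0.50, SE 0.19, adjusted p = 0.423) were the others with an unadjusted p under 0.05 below 0. All 4 cKO libraries lay below all 4 WT libraries for 3 of 35 genes (Olfr127, Olfr117 and Olfr132), against a background of 1.28% and 58 of 789 other receptors, and above them for 0 (background 1%).

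On the other side, Olfr95 was at 4.44 and 6.85 scaled TPM early and 3.57 and 3.54 late in WT, and 8.10 and 9.63 early and 4.34 and 5.26 late in cKO. It was higher in cKO within each fraction, by 0.59 in early (SE 0.21, adjusted p = 0.71) and 0.47 on lysate means (SE 0.16, adjusted p = 0.402). Olfr90 was at 3.18 and 3.06 early and 2.73 and 3.82 late in WT, and 5.36 and 5.25 early and 3.45 and 4.73 late in cKO. The early fractions stood apart and the late ones overlapped, with changes of 0.61 (SE 0.21, adjusted p = 0.71) and 0.43 on lysate means (SE 0.15, adjusted p = 0.406).

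**Figure D4:**
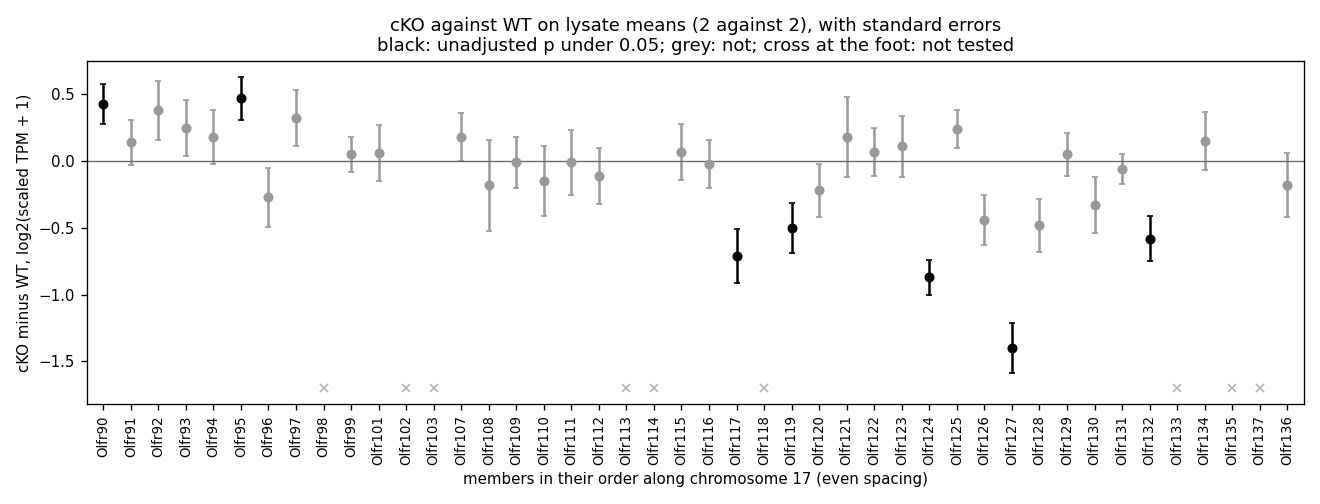
Change of cKO against WT on lysate means, in log2(scaled TPM + 1) with standard errors, for genes in their order along chromosome 17; black marks an unadjusted p under 0.05 and crosses at the foot mark genes that were not tested. Olfr90 and Olfr95 stand above 0 at the left, and Olfr117, Olfr119, Olfr124, Olfr127 and Olfr132 below 0 in the right part; none passed after adjustment.

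Along the chromosome, the first 10 genes (Olfr90 to Olfr99) had a median change on lysate means of 0.25 with 1 of 9 tested genes below 0, the next 10 (Olfr101 to Olfr113) -0.01, the following 10 (Olfr114 to Olfr123) 0.02, genes 31 to 40 (Olfr124 to Olfr133) -0.44 with 7 of 9 below 0, and the last 4 (Olfr134 to Olfr136) -0.02 with 1 of 2 tested below 0. Without WT early replicate 2, which leaves WT lysate 1 as the only WT lysate, these medians were 0.37, 0.15, -0.06, -0.38 and 0.14. These blocks were set by count and carry no test. They leave out Olfr138, which lies between Olfr135 and Olfr137 but outside the number rule. Olfr138 changed by -0.68 on lysate means (SE 0.19, adjusted p = 0.368). The copies of Olfr127 lie among genes 31 to 40. Olfr126 had a change of -0.44 on lysate means (SE 0.19, adjusted p = 0.462) and Olfr128 of -0.48 (SE 0.20, adjusted p = 0.457). Olfr128 was at 2.40 and 2.28 scaled TPM early and 1.54 and 1.06 late in WT, and 1.33 and 1.47 early and 0.443 and 0.87 late in cKO. Olfr761, below the filter, was at 0.639 and 0.436 early and 0.46 and 0.88 late in WT, and at 0 in 3 of the 4 cKO libraries, with 0.249 in cKO early replicate 2. All 4 copies were thus lower in cKO by their means, and shared reads between them are possible. 

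**Figure D5:**
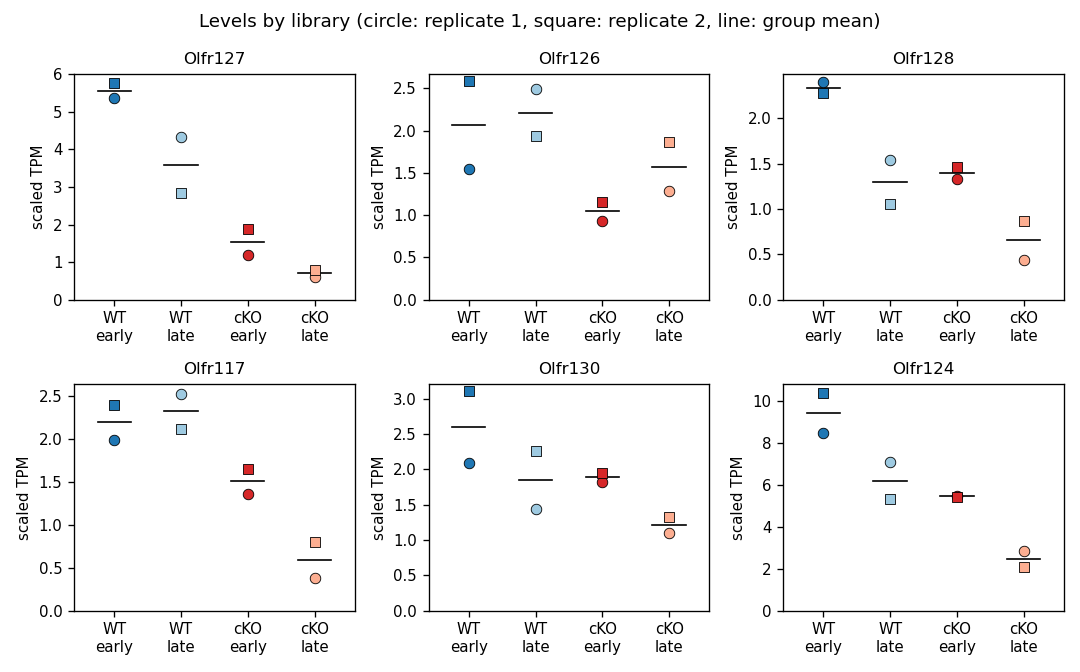
Scaled TPM by group for Olfr127 and its copies Olfr126 and Olfr128, for Olfr117 and its copy Olfr130, and for Olfr124; circles and squares are replicates 1 and 2 and bars are group means of 2 libraries, on axes that start at 0. The cKO libraries of Olfr127 and Olfr117 all lie below the WT libraries, while those of Olfr126, Olfr128, Olfr130 and Olfr124 overlap with them.

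The other genotype values of the tested genes ranged on lysate means from -0.27 (Olfr96) to 0.38 (Olfr92), leaving out those already given. No gene of the signalling, export, choice or MHC-region lists passed the genotype comparison on lysate means, where the background was 1 gene of 16097. The mature neuron marker list had a median change of -0.09 log2 between genotypes on lysate means, with 7 of 8 genes below 0, and the Bowman gland list a median of 0.21; their part in the receptor values was not tested.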

How the data were processed

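Polysomal RNA from early and late gradient fractions was measured in 8 libraries. The authors deposited 1 table of TPM for 21765 gene symbols, each column summing to 1000000; the submitters' processing notes name FastQC, cutadapt, STAR, DESeq2 and mm10, with no role or order, and the counting method and annotation are not given in the sources used here. Columns and groups were taken from sample titles and library names.

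Libraries were scaled by median ratios (factors of 0.94 to 1.07). Limma 3.58.1 (R 4.3.3) was then run on log2(scaled TPM + 1) for 16097 genes whose deposited TPM averaged 1 or more, with all 4 groups together, a mean-variance trend, two-sided, Benjamini-Hochberg adjusted at 0.05. Changes on this scale understate those of low genes. Whole reads were inferred from TPM steps for all 19783 genes above 0 in at least 2 libraries (tolerance 0.001), up to a common divisor of a gene's reads; they show that counting limits genes with few reads and served voom as an alternative. Scripts were tested on simulated data.

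Early and late libraries of 1 lysate share its name, so fraction tests were also run with lysate as a block; the correlation of their deviations from group means was 0.0863 for WT and 0.0502 for cKO lysates. Genotype was also tested on lysate means (2 against 2). Named were the 8 highest genes, up to 6 called genes a direction, up to 3 a direction with the smallest unadjusted p under 0.05 for genotype, the 2 genes on each side of the filter, Mex3a, up to 4 called genes of each other list, and the remaining genes by level. Olfr761, Olfr138, Znrd1, Znrd1as and the near copies were chosen after seeing their values. The 44 genes and all lists were chosen with earlier results of these data known. Positions, coding sequences and likeness come from GENCODE M21 on GRCm38 (Biopython 1.88 alignments), which may not be the authors' annotation. Amino acid and promoter sequences were not used here.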

Additional observations from a re-analysis of the deposited data

Results flagged for a closer look

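Olfr93 moved in opposite directions in the genotypes: late minus early was -0.56 and -0.12 log2 in the WT lysates and 0.39 and 0.32 in the cKO lysates. The interaction in limma was 0.70 (SE 0.38, adjusted p = 1.0), so a difference between genotypes did not pass the test. Such a split was found in 1 of 35 tested genes of the cluster (2.86%) and in 434 of 16097 genes tested (2.7%).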

How the results depend on the processing

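The count of 15 genes called between fractions on average was 4 with a mean TPM of at least 5, where 4 genes were tested, 9 under quantile normalization and 7 to 13 when 1 library was left out, lowest without cKO early replicate 2. The count of 4 in WT was 1 with a mean TPM of at least 5, 7 without the mean-variance trend, 8 with voom and 1 to 5 with 1 library left out. The count of 7 in cKO was 4 with a mean TPM of at least 5, 12 without the trend and 4 to 7 with 1 library left out. On lysate means voom gave 2 calls between genotypes in place of 0. Every other alternative that kept all 8 libraries gave 0 for both fractions, lysate means and the interaction. Leaving out 1 library removes its whole lysate from the lysate means and leaves 1 library in its group. Genotype and interaction counts are therefore not given for those runs. With lysate as a replicate block the counts were 13, 3 and 6 for fractions and 0 for the interaction. Blocking WT and cKO by replicate number, for which no label gives a reason (deviations correlated at 0.332 in early and 0.143 in late), gave 0, 0 and 0. The summed level was 105 (as deposited) and 104 (quantile) in WT late and 88.8 and 93.9 in cKO late. No gene named in a comparison changed sign. The median change of the cluster between genotypes in early polysomes, -0.02, was 0.17 with a mean TPM of at least 5 and -0.15 to 0.17 with 1 library left out; on lysate means it was -0.05 to 0.05 with 1 library left out, and for the interaction, -0.17, it was 0.02 without WT early replicate 1. The cause of these shifts was not tested.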
